A study of Homo sapiens with 5 samples.

Results

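The Notch-off cells were single SW480 tumor cells in which the Notch target HES5 gave 0 UMIs and HES1 gave at most 1 UMI per 10000. SW480 is an established human colorectal cancer line. Among the 826 wells that had over 2000 genes detected and a mitochondrial share of UMIs below 25%, 460 were Notch-off. At 1 day post injection (dpi) 255 of 533 cells (47.8%) met the rule, and at 4 dpi 205 of 293 cells (70.0%) did. The cells were chosen by their HES1 and HES5 UMIs, so these values are given as a description and both genes were left out of every test. At 1 dpi the member closest to the limit had 0.990 HES1 UMIs per 10000 and the first cell outside it had 1.02, and at 4 dpi these values were 0.984 and 1.03. Between 0.8 and 1 UMI per 10000 there were 20 members at 1 dpi and 10 at 4 dpi.

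Notch is a receptor that a ligand on a neighbouring cell triggers. Its cleaved inner part then joins RBPJ and Mastermind proteins in the nucleus and switches on repressors of the HES and HEY families. In the intestine active Notch favors stem and absorptive cells, while cells without it can take the secretory route. A cell with few HES1 and HES5 transcripts is called Notch-off here from those transcripts, and receptor cleavage was not measured.

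Both groups held GFP-labelled SW480 cells, transduced with a lentivirus, that had been injected into zebrafish embryos at 2 days post fertilization. Tumors at 1 dpi gave libraries 6, 7 and 8, and tumors at 4 dpi gave libraries 10 and 11. Tumors of many embryos were pooled and dissociated, and living cells were sorted 1 per well into 384-well plates. The host fish were embryos at injection and were older at 4 dpi than at 1 dpi, so host age changed together with the time compared. No other cell line or treatment was compared here. The sources used here do not tell whether plates of the same age shared a tumor pool, and each p-value then measures the spread between plates, which may be technical. With 3 libraries against 2 an exact permutation test of 1 gene cannot give a two-sided p below 0.1, so p-values come from a fit across all genes.

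The libraries held 4486490 to 7631299 human UMIs. Notch-off cells numbered 116, 52 and 87 at 1 dpi (libraries 6 to 8) and 94 and 111 at 4 dpi. Their summed UMIs ran from 2002525 to 3588894 per library and their median UMIs per cell from 20321 to 36632. Library 7 stood apart at the rule itself, because 9 of its 52 members had 0 HES1 UMIs, against 66, 55, 66 and 82 members in libraries 6, 8, 10 and 11. Its members averaged 0.456 HES1 UMIs per 10000, against 0.143 to 0.199 in the other libraries. Libraries 6, 7 and 10 shared 1 flow cell and libraries 8 and 11 the other. Within both flow cells 1491 of the 1493 genes called changed had the same direction. The genes were called from these same libraries, so that agreement was largely set by the choice of genes. Wells were not checked for doublets, and the 260 well numbers used by more than 1 library name positions on different plates. In sums over cells, fewer cells of a type and less RNA per cell cannot be told apart.

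The members expressed the epithelial genes of the line. All 12 epithelial markers were found in every library, with summed levels of 5247 to 7073 CPM (UMI counts scaled to a common library total, with TMM factors applied), and EPCAM gave 1291, 1476, 1417, 1502 and 1337 CPM in libraries 6, 7, 8, 10 and 11. Of 23 blood and vascular markers 15 were not kept, because they were not listed in all 5 libraries or were found in fewer than 10 wells, among them PTPRC, CDH5 and HBB. The 8 that were kept summed to at most 31.5 CPM in any library. Reads were mapped to the human transcriptome, so these human markers cannot show whether fish cells were present.

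Notch targets that the rule had not used were also lower in Notch-off cells. They are given as a description, because the same cells were split by HES1 and HES5. Of 25 other Notch targets compared with the remaining cells of the same libraries, 17 were lower and 0 higher in Notch-off cells at 1 dpi, with a median difference of -1.23 log2. Across all 12034 genes of that comparison 18.9% were lower and 18.9% higher. The split was not particular to Notch targets. Among lists described below, immediate early genes were lower in 39 of 40 (0 higher, median -1.70 log2). NF-kB feedback genes were lower in 16 of 23 (1 higher, median -1.12), and MHC class I genes higher in 17 of 22 (0 lower). NRARP, which feeds back on Notch, gave 21.0, 22.0 and 21.0 CPM in Notch-off cells of libraries 6, 7 and 8 and 129, 102 and 114 CPM in the other cells. At 4 dpi the contrast was smaller, with 5 of the 25 lower, 0 higher and a median of -0.55, against 4.23% lower and 1.2% higher among all genes. The other cells carried less HES1 by then, with means of 12.2, 17.8 and 13.1 UMIs per 10000 in the 1 dpi libraries against 2.96 and 2.46 at 4 dpi.

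Between 1 and 4 dpi 750 of 11363 genes tested were higher in Notch-off cells (6.6%) and 743 were lower (6.54%) by edgeR's quasi-likelihood test with Benjamini-Hochberg adjustment at 0.05. Those shares stand as background for the counts of each gene list below. The median change of all genes was -0.01 log2. The libraries of the times did not overlap in 4908 genes (43.2%), with 21.8% higher and 21.4% lower at 4 dpi. At an unadjusted p under 0.05 there were 3140 genes, and DESeq2 called 341 higher and 432 lower. Fits without library 10 or 11 keep a single 4 dpi library. Calls lost in such fits, here and below, cannot be told apart from calls lost to lower replication. Without library 7, which stood apart at the rule, 563 genes were higher and 526 lower. All changes are log2 of 4 dpi over 1 dpi, with standard errors, and all levels are CPM of the summed members in the order of libraries 6, 7, 8, 10 and 11.

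**Figure D1:**
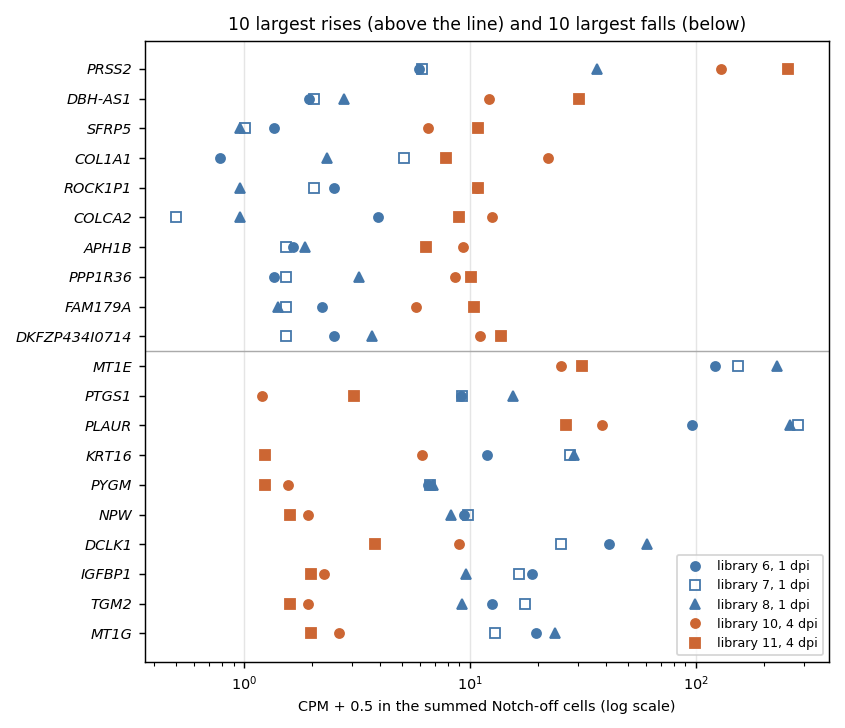
CPM plus 0.5 on a log axis (x) in the summed Notch-off cells of each library (blue 1 dpi, orange 4 dpi) for the 10 largest called rises above the line and the 10 largest falls below it. The genes were chosen among those whose times are separate, as were 43.2% of all genes tested. For PRSS2 the 4 dpi libraries were at 129 and 255 CPM against 5.45 to 36.1 CPM at 1 dpi.

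The largest rise among genes whose libraries did not overlap was PRSS2 (chromosome 7), which codes for the digestive enzyme precursor trypsinogen. Its levels were 5.45, 5.67, 36.1, 129 and 255 CPM. Both 4 dpi libraries lay above all 1 dpi libraries, and the change was 3.69 ± 0.39 log2 (adjusted p = 3.4e-06). UMIs were found in 20 of 255 cells at 1 dpi and 101 of 205 cells at 4 dpi. A single cell held 65.1% of the 1 dpi UMIs. In the cells that were not Notch-off PRSS2 changed by 4.87 log2. Reads of PRSS2 may be shared with the near-identical PRSS1, so the split between them is uncertain.

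PHGR1 (chromosome 15), a gene of the intestinal epithelium, rose by 2.43 ± 0.15 log2 (adjusted p = 1.4e-09). It gave 35.8, 52.5, 41.6, 220 and 238 CPM. The groups were far apart relative to the spread within each, and the call held in 19 of 19 alternatives. The change of PHGR1 in the other cells was 2.18 log2.

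DBH-AS1, an antisense RNA whose reads are told from those of DBH only by strand, rose by 3.56 ± 0.45 log2 (adjusted p = 3e-05). SFRP5, a secreted Wnt inhibitor, rose by 3.55 ± 0.59 log2 (adjusted p = 0.00047). SFRP5 is rare, with UMIs in 4 of 255 cells at 1 dpi and 25 of 205 at 4 dpi. ROCK1P1, a pseudogene that can share reads with ROCK1, rose by 2.81 ± 0.48 log2 and DKFZP434I0714 by 2.48 ± 0.43 log2 (adjusted p = 0.00065 and 0.00075). In the other cells DBH-AS1, SFRP5, ROCK1P1 and DKFZP434I0714 changed by 3.04, 2.45, 0.55 and 1.88 log2. COLCA2, PPP1R36 and FAM179A rose by 2.61, 2.56 and 2.50 log2, and the highest level of any of them was 12.03 CPM in library 10. PPP1R36 and FAM179A were not called without library 11 (adjusted p = 0.0622 and 0.165) and COLCA2 was not called without library 10 (adjusted p = 0.0915).

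COL1A1, a collagen chain made by fibroblasts that was in the blood and vascular list, also rose, by 2.90 ± 0.58 log2 (adjusted p = 0.00225). It gave 0.287, 4.64, 1.83, 21.6 and 7.37 CPM, found in 11 of 255 and 24 of 205 cells. Without library 10 the change was 1.89 (adjusted p = 0.17). The collagen genes COL1A2 and COL3A1 were not kept, as they were not listed in all 5 libraries or were found in fewer than 10 wells.

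Among the 10 largest falls MT1G came first and MT1E last. Both code for metallothioneins, small proteins that bind zinc and copper, and lie on chromosome 16. MT1G gave 19.2, 12.4, 23.3, 2.12 and 1.47 CPM and fell by 3.32 log2 (SE 0.42, adjusted p = 2.8e-05). MT1E gave 121, 154, 228, 24.8 and 30.9 CPM and fell by 2.58 log2 (SE 0.22, adjusted p = 2.6e-07). Neither gene overlapped between times, which was a condition of this choice. MT1X and MT2A, chosen after their values were seen, fell by 1.36 and 0.94 log2 (adjusted p = 0.00054 and 0.00187). Without library 11 MT2A changed by -0.77 log2 (adjusted p = 0.0872). These genes are near-identical copies, so reads may be split among them.

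The fall of the metallothioneins depended on the limit on HES1. With all HES5-negative cells kept, whatever their HES1, MT1E changed by -1.06 log2 (adjusted p = 0.00011), MT1X by -0.19 (adjusted p = 0.59) and MT2A by -0.28 (adjusted p = 0.253). In members with 0 HES1 the 3 changes were -2.85, -1.62 and -1.501.

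The promoters of MT1X and MT2A are printed because they belong to the measured metallothioneins for which a RefSeq promoter was given (GRCh38.p14, the 250 bases before the start site). Capitals mark the core of the metal response element, TGCACNC or TGCGCNC on either strand, where overlapping matches are merged. It occurs 4 times for MT1X and 7 times for MT2A. Of 27305 genes with a promoter of this length 28.5% hold at least 1.
MT1X, chr16:56682220-56682469, plus strand: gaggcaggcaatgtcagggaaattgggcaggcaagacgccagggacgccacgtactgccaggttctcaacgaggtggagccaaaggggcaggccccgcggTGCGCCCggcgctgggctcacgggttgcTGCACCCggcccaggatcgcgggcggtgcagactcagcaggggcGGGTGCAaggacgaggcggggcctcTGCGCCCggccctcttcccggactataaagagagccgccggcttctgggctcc
MT2A, chr16:56608334-56608583, plus strand: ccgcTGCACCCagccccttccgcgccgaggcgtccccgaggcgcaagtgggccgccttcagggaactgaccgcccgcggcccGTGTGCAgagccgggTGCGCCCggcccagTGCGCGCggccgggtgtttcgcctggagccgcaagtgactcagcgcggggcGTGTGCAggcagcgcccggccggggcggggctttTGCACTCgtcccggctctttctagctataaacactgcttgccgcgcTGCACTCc

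TGM2 (chromosome 20), an enzyme that crosslinks proteins, gave 12.04, 17.0, 8.69, 1.41 and 1.11 CPM and fell by 3.25 log2 (SE 0.50, adjusted p = 0.00019). IGFBP1 (chromosome 7), a secreted binder of insulin-like growth factors, gave 18.3, 16.0, 9.15, 1.77 and 1.47 CPM and fell by 3.15 log2 (SE 0.46, adjusted p = 0.00012). DCLK1 (chromosome 13), a kinase used as a tuft cell marker, gave 40.7, 24.7, 60.4, 8.49 and 3.32 CPM and fell by 2.81 log2 (SE 0.36, adjusted p = 3.3e-05). All 3 were called in 19 of 19 alternatives. Members with a DCLK1 UMI went from 100 of 255 to 20 of 205.

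NPW, PYGM, KRT16 and PTGS1 fell by 2.73, 2.71, 2.71 and 2.68 log2 (adjusted p from 0.00107 to 0.00398). PYGM breaks down muscle glycogen and PTGS1 makes prostaglandins. PYGM was not called without library 11 (adjusted p = 0.0845), and KRT16, which shares sequence with other keratins, was not called by DESeq2 (adjusted p = 0.0661).

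Genes of G2 and mitosis formed the list with the most rises. Of 56 tested, 40 were higher (71.4%, against 6.6% of all genes) and 0 lower (0 also at an unadjusted p under 0.05). The other 16 were not called, and the median was 1.05 log2. Their summed levels were 3163, 2961, 1827, 4132 and 5186 CPM. Every 1 dpi library lay below both 4 dpi libraries, and library 8 was lowest and library 11 highest.

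TOP2A, which untangles DNA, gave 60.5, 42.2, 24.7, 107 and 207 CPM and rose by 1.84 ± 0.25 log2 (adjusted p = 5.3e-05). CENPF (chromosome 1), a kinetochore protein chosen after its values were seen, gave 124, 69.5, 38.9, 199 and 356 CPM and rose by 1.79 ± 0.27 log2 (adjusted p = 0.00014). Members with a CENPF UMI went from 97 of 255 to 125 of 205. MKI67, PLK1 and CCNB2, a proliferation marker, a mitotic kinase and a mitotic cyclin, also chosen so, rose by 1.46, 1.33 and 0.98 log2 (adjusted p = 0.00051, 0.00372 and 0.0103). Without library 11 their adjusted p were 0.0613, 0.144 and 0.233.

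Without library 11, 7 genes of the list were called higher (median 0.78), without library 8 or without library 10 32 were, and DESeq2 called 12. With a mitochondrial share under 15%, 7 were called (median 0.68). In the 230 members at or below the median of summed cell cycle UMIs, 1 of 30 tested was higher (median 0.03). That choice used the genes of this list, so a smaller change there was partly set by it. Median cell cycle UMIs per 10000 of the members were 33.6, 46.8 and 28.3 at 1 dpi and 43.9 and 45.8 at 4 dpi, so library 7 lay with the 4 dpi libraries here but not in the summed level of the list, and the part of this measure in the rise was not tested.

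Promoters of TOP2A, CCNB2 and PLK1, members that rose together, are shown with their CHR element (TTTGAA, on either strand) and CCAAT boxes in capitals, letters that many mitotic genes carry before their start.
TOP2A, chr17:40417897-40418146, minus strand: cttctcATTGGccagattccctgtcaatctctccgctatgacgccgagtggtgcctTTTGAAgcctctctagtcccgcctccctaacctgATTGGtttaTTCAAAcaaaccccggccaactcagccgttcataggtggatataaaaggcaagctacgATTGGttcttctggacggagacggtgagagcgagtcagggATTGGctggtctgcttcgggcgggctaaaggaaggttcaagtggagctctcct
CCNB2, chr15:59104896-59105145, plus strand: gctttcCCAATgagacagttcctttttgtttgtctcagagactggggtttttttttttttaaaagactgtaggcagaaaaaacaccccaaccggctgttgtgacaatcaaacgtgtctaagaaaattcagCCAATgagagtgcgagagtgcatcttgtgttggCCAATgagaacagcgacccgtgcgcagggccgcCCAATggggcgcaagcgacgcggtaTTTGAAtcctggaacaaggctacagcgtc
PLK1, chr16:23678639-23678888, plus strand: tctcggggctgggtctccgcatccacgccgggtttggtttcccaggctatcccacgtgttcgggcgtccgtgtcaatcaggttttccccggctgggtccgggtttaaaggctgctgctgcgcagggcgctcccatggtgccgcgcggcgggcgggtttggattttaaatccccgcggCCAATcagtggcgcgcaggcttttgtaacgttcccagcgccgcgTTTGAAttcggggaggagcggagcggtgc
TTTGAA was found in 26 of the 46 genes of the list that matched a RefSeq promoter (56.5%), against 16.1% of all 27305 genes. It was found in 18 of 32 matched genes that rose and in 8 of 14 that were not called. CCAAT was found in 33 of 46 (71.7%) against 37.0% of all genes. The matches are letters in a window, and binding was not measured.

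Of the S-phase genes, which copy DNA, those called moved the other way. Of 43 tested, 9 were lower (20.9%, against 6.54% of all genes) and 0 higher (0 higher also at an unadjusted p under 0.05). The median was -0.19 log2 and the summed levels were 3406, 3358, 2604, 2699 and 2651 CPM. These levels overlapped between times, as library 8 lay below both 4 dpi libraries. DESeq2 called 4 lower. With cells thinned to 10000 UMIs before the choice of members, 0 of 39 were called (median -0.06). MCM6 (chromosome 2), a subunit of the replicative helicase, gave 126, 145, 116, 65.5 and 71.1 CPM and fell by 0.91 log2 (SE 0.14, adjusted p = 0.00022). PCNA, the sliding clamp, gave 329, 313, 250 and then 214 and 198 CPM and fell by 0.53 log2 (SE 0.13, adjusted p = 0.00817). Without library 11 the adjusted p of PCNA was 0.126. The list held 1 call without library 11, 14 without library 8 and 0 among members with 0 HES1, where its median was 0.04.

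**Figure D2:**
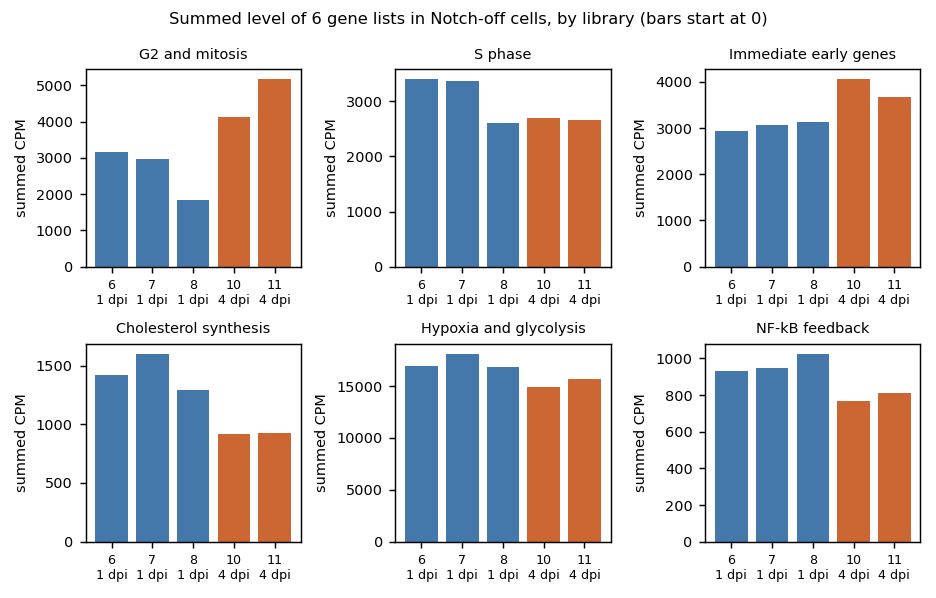
Summed CPM of gene lists in the Notch-off cells of each library, with 1 bar per library (blue 1 dpi, orange 4 dpi) and each axis from 0. G2 and mitosis genes ran from 1827 to 3163 CPM at 1 dpi and 4132 to 5186 CPM at 4 dpi, and cholesterol synthesis genes from 1290 to 1602 CPM down to 919 and 929 CPM.

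Immediate early genes, transcription factors and regulators that cells switch on within minutes of a signal, rose on balance. Of 39 tested, 16 were higher (41.0%) and 4 lower (10.3%), against 6.6% and 6.54% of all genes. The median was 0.46 log2, and their summed levels were 2944, 3057, 3134, 4066 and 3672 CPM. Without library 10 the median was 0.21, with 11 higher and 3 lower, and in the 230 members at or below the median of summed cell cycle UMIs it was 0.10, with 9 higher and 6 lower. ATF3 (chromosome 1), a stress-responsive repressor, gave 101, 85.0, 72.3, 233 and 219 CPM and rose by 1.38 ± 0.13 log2 (adjusted p = 1.4e-06). JUN (chromosome 1), a subunit of AP-1, gave 84.0, 74.2, 102, 224 and 184 CPM and rose by 1.23 ± 0.14 log2 (adjusted p = 7.5e-06). Both were called in 19 of 19 alternatives.

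NR4A1 (chromosome 12), a nuclear receptor, gave 6.88, 9.79, 9.14, 31.1 and 20.3 CPM and rose by 1.61 ± 0.28 log2 (adjusted p = 0.00063). FOS, EGR1 and IER2 rose by 0.86, 0.65 and 0.87 log2 (adjusted p = 0.00142, 0.0031 and 0.00016). Without library 11 the adjusted p of EGR1 was 0.11. JUN, FOS, EGR1 and IER2 were chosen after their values were seen. The share of members with a UMI did not move with these sums: it was 15.7% at 1 dpi and 14.1% at 4 dpi for NR4A1, and 64.7% and 51.7% for FOS. CYR61 (chromosome 1), a secreted matrix protein, rose by 1.82 ± 0.54 log2 (adjusted p = 0.0286) and was called in 9 of 15 alternatives, with an adjusted p from 0.0542 to 0.361 without library 6, 8, 10 or 11.

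In the other direction FOSL1, also an AP-1 subunit, fell by 0.82 log2 (SE 0.14, adjusted p = 0.00081), from 230, 247 and 202 CPM to 151 and 106 CPM. DUSP5, a phosphatase that shuts off ERK, fell by 0.91 log2 (adjusted p = 0.0196). Without library 11 the adjusted p of FOSL1 was 0.0556, and that of DUSP5 was 0.0628 to 0.138 without library 7, 10 or 11.

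The rise of the immediate early genes depended on the HES1 limit. With no limit on HES1 the list's median was 0.03 with 10 genes higher and 6 lower, NR4A1 changed by -0.11 (adjusted p = 0.822), FOS by -0.28 (adjusted p = 0.418) and EGR1 by -0.04 (adjusted p = 0.951). JUN and ATF3 stayed higher under that choice, by 0.72 and 1.09 log2 (adjusted p = 0.0122 and 0.00018). Among members with 0 HES1, which left library 7 out of the fit, 7 genes were higher and 3 lower.

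Cholesterol synthesis genes fell. Of 26 tested, 13 were lower (50%, against 6.54% of all genes), 1 higher and 12 not called. The median was -0.60 log2, and the list summed to 1416, 1602, 1290, 919 and 929 CPM. MSMO1 (chromosome 4), an enzyme of the route named after its values were seen, gave 56.2, 74.2, 47.1, 13.4 and 21.7 CPM and fell by 1.74 log2 (SE 0.23, adjusted p = 3.7e-05). Both 4 dpi libraries lay below all 1 dpi libraries. HMGCS1, an early enzyme of the same route chosen likewise, fell by 0.92 log2 (adjusted p = 0.00184). SREBF1, a regulator of lipid genes, was the member called higher, by 0.88 ± 0.22 log2 (adjusted p = 0.0132), in 10 of 19 alternatives. It was not called without library 10 or 11 (adjusted p = 0.128 and 0.0575). Without library 11, 7 genes of the list were called lower and the median was -0.57.

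Genes of hypoxia and glycolysis fell in 10 of 33 (30.3%, against 6.54% of all genes) and rose in 1, with a median of -0.42 log2. PFKP (chromosome 10), which commits sugar to glycolysis, gave 63.6, 59.8, 69.5, 34.3 and 34.3 CPM and fell by 0.91 log2 (SE 0.16, adjusted p = 0.00098). PGK1 and ENO1, enzymes further down the same route and chosen after their values were seen, fell by 0.59 and 0.44 log2 (adjusted p = 0.00257 and 0.00416). PFKL, another form of the PFKP enzyme, was called higher by 0.57 log2 (adjusted p = 0.0351), in 9 of 19 alternatives and not without library 6, 7, 10 or 11 (adjusted p from 0.0863 to 0.268). PGK1 was not called without library 11 (adjusted p = 0.0649). The list held 5 falls without library 11 and 3 among members with 0 HES1.

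Among NF-kB feedback genes, which respond to inflammatory signals, 6 of 22 fell (27.3%, against 6.54% of all genes). In that list 0 rose (1 at an unadjusted p under 0.05), and the median was -0.36 log2. PLAU, the urokinase protease, gave 7.16, 7.21, 22.4, 1.77 and 2.21 CPM and fell by 2.56 log2 (SE 0.56, adjusted p = 0.00463). It was not called without library 10 or without library 11 (adjusted p = 0.0683 and 0.0652), and the list then held 2 falls in each case. NFKB1, a subunit of the factor itself named after its values were seen, went from 74.5, 71.1 and 71.3 CPM to 38.6 and 42.4 CPM, a fall by 0.84 log2 (adjusted p = 0.00128). PLAUR (chromosome 19), the receptor for urokinase, gave 95.7, 284, 262, 37.9 and 26.2 CPM and fell by 2.71 log2 (SE 0.32, adjusted p = 1.3e-05). Of 15 chemokine and cytokine genes tested 0 passed the test by edgeR or by DESeq2, with 1 higher and 1 lower at an unadjusted p under 0.05, and CXCL1, which attracts neutrophils, ranged from 7.37 to 34.0 CPM with overlapping times.

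Serine proteases and their inhibitors fell in 9 of 21 (42.9%) and rose in 2 (9.52%), against 6.54% and 6.6% of all genes. KLK6 (chromosome 19), a kallikrein chosen after its values were seen, gave 168, 177, 158, 46.0 and 42.7 CPM and fell by 1.91 log2 (SE 0.14, adjusted p = 3.7e-08). KLK10 fell by 2.27 log2 and SERPINA1 by 1.92 log2 (adjusted p = 0.00044 and 6.4e-05), both also chosen so. Without library 11, 5 genes of the list were called lower.

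In the epithelial-mesenchymal list 10 of 32 fell (31.25%) and 2 rose (6.25%), against 6.54% and 6.6% of all genes (median -0.32 log2). The list mixes epithelial and mesenchymal genes, so its falls do not all point the same way. KRT8, KRT18, KRT19, CDH1 and CLDN3 belong to it and are counted again among the epithelial markers below. VIM (chromosome 10), an intermediate filament used as a mesenchymal marker, was one of the rises. It gave 28.1, 34.5, 39.3, 84.9 and 98.7 CPM and rose by 1.45 ± 0.17 log2 (adjusted p = 7.9e-06), in 19 of 19 alternatives. TGM2 was the largest fall. S100A4 and TNC, genes of motility and matrix named after their values were seen, fell by 1.17 and 1.98 log2 (adjusted p = 0.00013 and 0.00032). ZEB1, a repressor of epithelial genes, overlapped between times (-0.31 ± 0.39 log2, adjusted p = 0.667). The list held 6 falls without library 7 and 6 without library 11. Of the 12 epithelial markers 4 fell (KRT8, KRT18, KRT19 and CDH1, 33.3%) and 1 rose (CLDN3, 8.33%). Their median was -0.25 log2, and 1 fell without library 7, 10 or 11. KRT19 fell by 0.73 log2 and CLDN3 rose by 0.96 log2 (adjusted p = 0.00054 and 0.00438), and CLDN3 was not called without library 11 (adjusted p = 0.09).

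Of 21 genes listed as Notch targets and tested over time in the Notch-off cells 3 rose (14.3%) and 1 fell (4.76%), with a median of 0.27 log2. A place on the list does not show that Notch switches a gene on in these cells. Of all genes 6.6% rose and 6.54% fell. The median was -0.0050 without library 10 and -0.013 with HES1 allowed up to 2 UMIs per 10000, and without library 11 there was 1 rise. HES6 (chromosome 2), listed here though it is an inhibitor of HES1, gave 38.1, 36.6, 33.4, 108 and 135 CPM and rose by 1.74 ± 0.15 log2 (adjusted p = 2.8e-07). HES2 gave 5.45, 2.58, 3.20, 13.1 and 17.3 CPM and rose by 1.92 ± 0.36 log2 (adjusted p = 0.00152), though not without library 11 (adjusted p = 0.0593). DTX3 rose by 0.64 log2 (adjusted p = 0.0223), in 11 of 19 alternatives and not without library 7, 10 or 11 (adjusted p from 0.06 to 0.218). MYC, a growth regulator, gave 278, 288, 268, 221 and 165 CPM and fell by 0.53 log2 (SE 0.13, adjusted p = 0.00873), and without library 11 the change was -0.33 (adjusted p = 0.22). In the other cells HES6, HES2, DTX3 and MYC changed by 1.65, 2.45, 0.31 and -0.54 log2. HEYL gave 5.45, 5.15, 4.12, 5.31 and 1.84 CPM with a change of -0.46 ± 0.49 log2 (adjusted p = 0.599). HEY1 and HEY2 were too low to be tested, with at most 4.87 CPM in any library.

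Of 39 Notch receptors, ligands and cofactors 3 rose (7.69%) and 1 fell (2.56%), close to the 6.6% and below the 6.54% of all genes. Without library 10 or library 11 there was 1 rise. NOTCH1 gave 36.7, 38.6, 35.2, 51.7 and 51.9 CPM and rose by 0.49 ± 0.16 log2 (adjusted p = 0.0472). That call held in 7 of 19 alternatives and was lost without any 1 of the 5 libraries (adjusted p from 0.0726 to 0.211). The gamma-secretase subunits APH1B and PSENEN, parts of the enzyme that cleaves the receptor, rose by 2.60 ± 0.52 and 0.59 log2 (adjusted p = 0.00245 and 0.00756), with APH1B not called without library 10 (adjusted p = 0.0797) and PSENEN not called without library 11 (adjusted p = 0.0909). MAMLD1, a Mastermind-like protein, gave 8.60, 12.9, 13.3, 3.19 and 2.95 CPM and fell by 1.87 log2 (SE 0.41, adjusted p = 0.00442; without library 11, adjusted p = 0.0668). The ligand DLL4 gave 2.29, 1.55, 1.37, 4.6 and 5.53 CPM, a change of 1.45 ± 0.52 log2 that missed the threshold (adjusted p = 0.0683). RBPJ changed by -0.05 ± 0.13, MAML1 by -0.09 ± 0.20, MAML2 by -0.21 ± 0.50 and CREBBP by 0.22 ± 0.16 log2, and none passed the test.

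Of 26 Wnt feedback and target genes 5 rose (19.2%) and 2 fell (7.69%), against 6.6% and 6.54% of all genes (median 0.17 log2). In this list 2 rose without library 11 and 3 without library 10. CTNNB1 (chromosome 3), the transducer beta-catenin, gave 218, 265, 240, 374 and 372 CPM and rose by 0.63 ± 0.11 log2 (adjusted p = 0.00089). The feedback inhibitors NKD1, APCDD1 and NOTUM rose by 0.70, 0.60 and 0.58 log2 (adjusted p = 0.00162, 0.0369 and 0.00723). NKD1 was not called without library 11 (adjusted p = 0.116), NOTUM without library 10 (adjusted p = 0.107), nor APCDD1 without library 7, 10 or 11 (adjusted p = 0.0925, 0.21 and 0.161). PROX1, a transcription factor switched on by Wnt in colorectal tumors, rose by 0.76 ± 0.16 log2 (adjusted p = 0.003), and was not called without library 11 (adjusted p = 0.137). LEF1, a nuclear partner of beta-catenin, gave 53.01, 53.6, 40.7, 24.4 and 26.5 CPM and fell by 0.95 log2 (adjusted p = 0.0021). The stem cell genes LGR5 and ASCL2 changed by -0.22 ± 0.33 and 0.05 ± 0.18 log2, AXIN2 by 0.30 ± 0.14, SOX9 by 0.09 ± 0.14 and TCF7 by -0.19 ± 0.16, with adjusted p from 0.15 to 0.897.

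Among 14 secretory lineage genes 4 rose (28.6%) and 2 fell (14.3%), against 6.6% and 6.54% of all genes. Without library 10 or library 11, 1 of them rose. The mucin MUC5AC gave 1.43, 2.58, 5.94, 9.55 and 11.4 CPM and rose by 1.74 ± 0.46 log2 (adjusted p = 0.0149), in 11 of 16 alternatives and not without library 6, 10 or 11 (adjusted p = 0.0774, 0.0722 and 0.166). TFF1, a trefoil peptide, gave 4.87, 7.21, 5.49, 1.41 and 0.368 CPM and fell by 2.60 log2 (adjusted p = 0.00884; without library 11, 0.161). TFF3 overlapped between times at 70.2 to 129 CPM (0.09 ± 0.19 log2, adjusted p = 0.792). Of 10 absorptive genes 1 rose (10%), PHGR1, and 2 fell (20%), led by TSPAN1 at -1.38 log2 (adjusted p = 0.00257, and 0.0664 without library 11). Of 10 bHLH factors 2 rose (20%) and 0 fell. BHLHE41, a clock repressor, rose by 0.98 log2 (adjusted p = 0.00238, and 0.0888 without library 11). Neither of the rises was called without library 11.

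In the remaining lists most genes did not pass. Of 37 interferon-stimulated genes 3 rose and 2 fell, 8.11% and 5.41% against 6.6% and 6.54% of all genes. The rises were led by HERC5 at 1.96 ± 0.33 log2 (adjusted p = 0.00054) and the falls by MX2 at -0.84 (adjusted p = 0.038). MHC class I genes had 1 rise, HLA-C at 0.49, and 1 fall, CALR at -0.50, of 21 (4.76% each, below those shares). Of 22 p53 targets 3 rose, led by BTG2 at 1.35 ± 0.18 log2, and 3 fell, led by TIGAR at -0.78 (13.6% each). Without library 11 there were 1 rise and 1 fall. Of 21 G1 regulators 5 rose (23.8%, against 6.6% of all genes) and 0 fell, led by the inhibitor CDKN1C at 1.2. Without library 11 there was 1 rise and without library 10 there were 2, with a median of 0.06 against 0.29 in all libraries. Of 22 TGF-beta and BMP genes 3 fell (13.6%, against 6.54% of all genes), led by PMEPA1 at -0.76, and no such call was made by edgeR without library 11. Mitochondrially encoded genes are not given as a result, because wells were filtered on their share of UMIs. FLNA, an actin crosslinker named by the study, fell by 0.47 log2 (adjusted p = 0.0298). Without library 11 the adjusted p of MX2, HLA-C, TIGAR, CDKN1C and PMEPA1 ran from 0.0593 to 0.226. CALR was not called without library 10 (adjusted p = 0.299), nor FLNA without library 7, 8 or 10 (adjusted p from 0.0641 to 0.318). HBA1, a hemoglobin gene, fell by 1.6 log2 (adjusted p = 0.0359) from at most 9.79 CPM, and was not called without library 7, 8, 10 or 11 (adjusted p from 0.0501 to 0.218).

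Heat shock genes had 3 rises (11.1%) and 6 falls (22.2%) of 27, against 6.6% and 6.54% of all genes, with a median of -0.17 log2. Without library 11 there were 1 rise and 2 falls, and without library 10 there were 3 rises and 3 falls with a median of 0.016. HSPA1A was the largest rise at 2.13 ± 0.52 log2 (adjusted p = 0.00937), but its libraries overlapped at 4.59, 7.73, 23.8, 14.2 and 85.5 CPM. A single cell held 77.2% of its 4 dpi UMIs, and without library 11 the change was 0.31 (adjusted p = 0.828), and the sign turned to -0.87 among members with 0 HES1. HSPA1A is near-identical to HSPA1B. The ER chaperone HSPA5 fell by 0.68 log2 (adjusted p = 0.00072).

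The time change of the Notch-off cells was then set against that of the other cells of the same libraries (278 at 1 dpi and 88 at 4 dpi), in a fit with the library as a block. Levels in this comparison are scaled over both states and differ slightly from those above. Of 12034 genes 105 had a higher change in Notch-off cells (0.873%) and 73 a lower one (0.607%), 1.48% in all, and 2027 had an unadjusted p under 0.05. Both states were cut by HES1 and HES5 and the other cells carried less of both at 4 dpi, so a difference of change can move with either state. In libraries 10 and 11, 76.3% and 82% of the other cells had 0 HES5 UMIs, against 43.4% to 47.3% at 1 dpi. Their median HES1 was 1.89 and 2.01 UMIs per 10000, against 3.77 to 6.7 at 1 dpi. The other cells of the 2 times were therefore unlike in both genes.

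**Figure D3:**
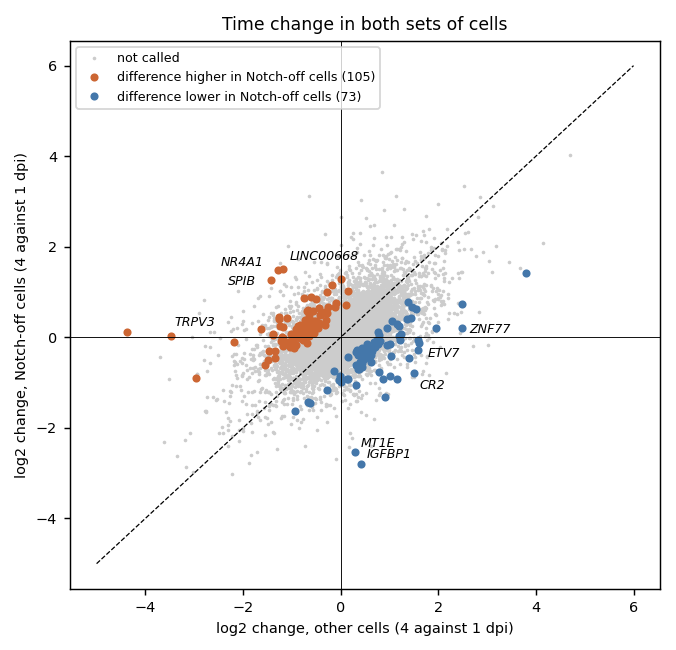
Log2 change from 1 to 4 dpi in the Notch-off cells (y) against that in the other cells (x), 1 point per gene tested, with equal change on the dashed line. The 105 genes with a higher and the 73 with a lower change in Notch-off cells are colored, and among them NR4A1 changed by 1.49 in Notch-off and -1.28 in the other cells and MT1E by -2.54 and 0.29.

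In the immediate early list 8 of 40 genes had a higher change in Notch-off cells and 1 a lower one, against 0.873% and 0.607% of all genes. The list's median change in the other cells was -0.16 log2. NR4A1 gave 7.21, 10.2, 9.54, 32.1 and 20.9 CPM in Notch-off cells and 151, 253, 201, 113 and 57.8 CPM in the other cells. Notch-off cells lay below the other cells in every library, and the levels drew closer by 2.80 ± 0.24 log2 (adjusted p = 1.3e-05), in 11 of 11 alternatives. IER2 differed by 1.35 (adjusted p = 6.8e-05), FOS by 1.44 (adjusted p = 0.00789) and EGR1 by 1.06 (adjusted p = 0.0112). FOS was not called without library 10 (adjusted p = 0.133), nor EGR1 without library 7 or library 11 (adjusted p = 0.0773 and 0.0787). In Notch-off cells 39 of the 40 genes were lower than in the other cells at 1 dpi, with a median of -1.70 log2, and 34 at 4 dpi, with a median of -1.18, a description of the states the rule divided.

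**Figure D4:**
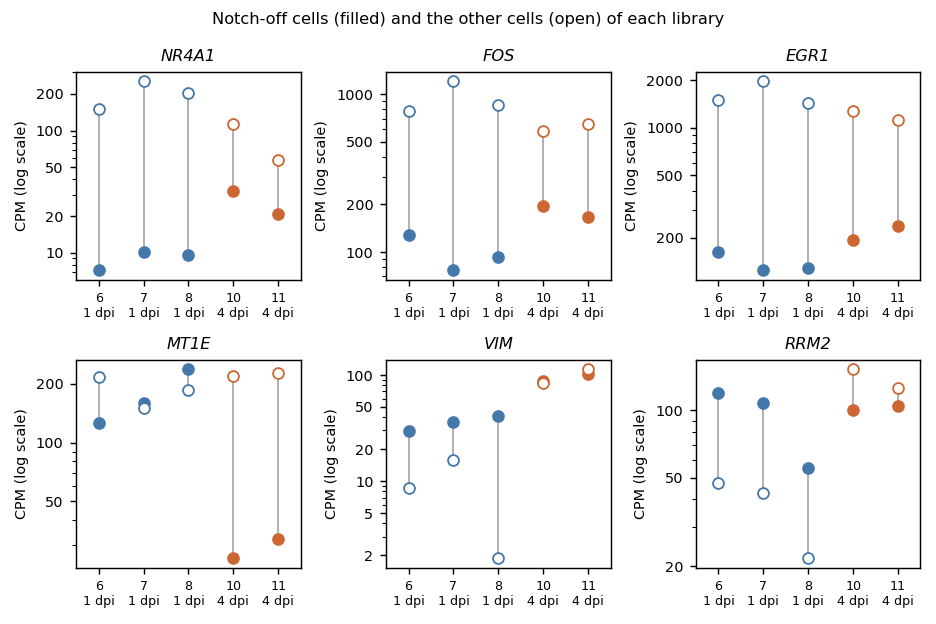
CPM on a log axis in Notch-off cells (filled) and the other cells (open) of each library for NR4A1, FOS, EGR1, MT1E, VIM and RRM2. MT1E of the 2 states lay at 127 to 238 and 150 to 217 CPM at 1 dpi, and at 25.5 and 32.0 against 219 and 228 CPM at 4 dpi.

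MT1E changed by -2.54 log2 in Notch-off cells and by 0.29 in the rest. Its levels were 127, 160, 238, 25.5 and 32.0 CPM in Notch-off cells and 217, 150, 187, 219 and 228 CPM in the other cells. The states overlapped at 1 dpi and were separate at 4 dpi, with a difference of change of -2.84 ± 0.27 log2 (adjusted p = 3.4e-05) in 11 of 11 alternatives. A single cell held 40.3% of the other cells' 4 dpi UMIs. MT2A and MT1X differed by -1.78 and -2.30 log2 (adjusted p = 0.00121 and 0.00652), neither called without library 10 (adjusted p = 0.0503 and 0.198).

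Several regulators that were high in the other cells at 1 dpi changed less in Notch-off cells. ID1, SOX9 and HEYL are in the list of Notch targets, and NRARP feeds back on Notch. The rule kept HES1 and HES5 low in Notch-off cells at both times, while the other cells carried less of both at the later time. A smaller change of Notch targets in Notch-off cells was therefore partly set by the rule. The values that follow are given as a description. ID1, a BMP target, differed by 2.04 (adjusted p = 0.00037). It was called in 11 of 11 alternatives. It gave 83.5, 57.9, 93.5, 74.0 and 68.5 CPM in Notch-off cells and 525, 426, 353, 120 and 74.1 CPM in the other cells. NRARP differed by 1.51 log2 (adjusted p = 0.00366) and SOX9 by 1.02 (adjusted p = 0.00468), neither called without library 10 (adjusted p = 0.0508 and 0.0776). HEYL, with a difference of 2.30, missed the threshold (adjusted p = 0.0517).

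In the S-phase list 0 of 43 genes had a higher and 5 a lower change in Notch-off cells, against 0.873% and 0.607% of all genes. RRM2, which makes the building blocks of DNA, gave 119, 108, 55.3, 101 and 104 CPM in Notch-off cells and 47.3, 42.6, 21.8, 153 and 125 CPM in the other cells. Its order reversed between times, with a difference of -1.77 log2 (adjusted p = 6.8e-05). PCNA differed by -0.95 (adjusted p = 0.00366) and was not called without library 10 (adjusted p = 0.0533). With the 0 HES1 rule none of the list was called, and RRM2 differed by -0.61 log2 (adjusted p = 0.404). In the G2 and mitosis list 0 of 56 genes passed the test of a different change by edgeR or DESeq2. By edgeR 1.48% of all genes passed, so this count is near that share. At an unadjusted p under 0.05, 2 genes of the list were higher and 1 lower, and the median change of the other cells was 0.72. VIM rose in both states and more in the other cells, by 2.05 log2 (adjusted p = 0.0174), a call lost without library 10 or library 11 (adjusted p = 0.0984 and 0.092). These genes were named for their lists after their values were seen.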

How the data were processed

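Single-cell transcriptomes (SORT-seq, CEL-Seq2 chemistry) of SW480 cells were analysed in 5 libraries. The authors mapped reads with BWA to the human transcriptome (hg38 in the submitters' processing notes, versions not given in the sources used here), and the deposited values are raw UMI counts per gene and well, with no normalization. Spike-in rows were left out of sums but kept in the cell filter. Genes not listed in all 5 libraries or found in fewer than 10 wells were left out, so 15020 of 15258 genes listed in all libraries were kept.

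The members and lists were chosen with earlier results of these data known. Counts of members were added up within each library and compared with edgeR 4.0.16 (TMM, filterByExpr, quasi-likelihood, Benjamini-Hochberg at 0.05). States were compared in a fit with the library as block. DESeq2 1.42.0 was an alternative, and the test was tried on simulated counts. Genes were named as all called Notch genes, all genes the study named, the 10 largest non-overlapping rises and falls with at least 50 UMIs, the largest called change of each list in each direction, and the 5 largest differences in each direction, and others are said to be chosen later. Some genes this rule named are not reported here.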

Additional observations from a re-analysis of the deposited data

Results flagged for a closer look

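A test of the difference itself, between the time change of the Notch-off cells and that of the other cells of the same libraries, marked 9 genes among the largest in each direction of those called. They are given as Notch-off minus other cells, in log2, with the adjusted p of edgeR's quasi-likelihood test. Groups of 3 and 2 libraries are too small for a test of one outlying value within a group, so values with each library left out are given instead.

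Lower change in Notch-off cells was found for ETV7 at -3.62 (adjusted p = 0.0118), IGFBP1 at -3.55 (adjusted p = 0.0194), MT1E at -2.84 (adjusted p = 3.4e-05), CR2 at -2.46 (adjusted p = 0.0238) and ZNF77 at -2.35 (adjusted p = 0.0245). A single other cell held 94.6% of the 147 ETV7 UMIs of the other cells at 4 dpi, and without library 10 the value was -0.41 (adjusted p = 0.952). For IGFBP1 a single cell held 56.5% of the 23 UMIs of the other cells at 4 dpi, and for ZNF77 40.9% of 132. IGFBP1 was not called without library 10 or 11 (adjusted p = 0.2 and 0.075). CR2 and ZNF77 were not called without any 1 of libraries 6, 7, 8 and 10 (adjusted p from 0.062 to 0.268), nor ETV7 without library 6 (adjusted p = 0.0686).

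Higher change in Notch-off cells was found for TRPV3 at 4.03 (adjusted p = 0.0229), SPIB at 2.93 (adjusted p = 0.00652), LINC00668 at 2.82 (adjusted p = 0.00958) and NR4A1 at 2.80 (adjusted p = 1.3e-05). TRPV3 gave 19 UMIs in Notch-off and 3 in the other cells at 4 dpi, against 23 and 192 at 1 dpi, and was not called without library 6, 7, 10 or 11 (adjusted p from 0.0615 to 0.234). SPIB and LINC00668 were not called without library 10 (adjusted p = 0.106 and 0.111). NR4A1 and MT1E were called in 11 of 11 alternatives.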

How the results depend on the processing

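No paired analysis was possible because no library number occurs at both times. Counts are given as higher and lower. For the time change (750 and 743), the flow cell as a term gave 738 and 735, DESeq2 gave 341 and 432, leaving out single libraries 195 to 722 and 180 to 705, members with 0 HES1 UMIs 269 and 280, thinning to 10000 UMIs before the choice of members 410 and 390 and after it 345 and 328, low-cycling members 310 and 367, and a mitochondrial share under 15% gave 461 higher. For the difference in time change (105 and 73), DESeq2 gave 54 and 37, single libraries left out 35 to 84 and 20 to 68, 0 HES1 22 and 28, and thinning gave 43 higher. For Notch-off against other cells at 1 dpi (2271 and 2280), the values were 1132 and 1215 with DESeq2, 1229 to 2393 and 1373 to 2475 with single libraries left out, 975 and 1150 with 0 HES1, and 1120 and 1200 with thinning. At 4 dpi (144 and 509) they were 35 and 198, 25 to 188 and 136 to 507, 556 and 925, and 326 lower with thinning. Members with 0 HES1 left library 7 out of the time fit (9 cells). Fits of states with no limit on HES1 were not run, as each 4 dpi library then had 9 other cells. Leaving spike-ins out of the filter was chosen after seeing the data.

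Signs turned for these genes, of which HSPA1A and ETV7 alone had been called. With 0 HES1, LGR5 was 0.27, TCF7 0.079 and HSPA1A -0.87 log2. With HES1 at or under 2 per 10000, LGR5 was 0.039 and the ETV7 difference 3.24. With no limit on HES1, LGR5 was 0.083, SOX9 -0.14, MAML2 0.19 and CXCL1 0.13. In low-cycling members LGR5 was 0.13, TFF3 -0.30, MAML1 0.21, RBPJ 0.093 and HSPA1A -0.80. With a mitochondrial share under 15%, TFF3 was -0.52, MAML1 0.021 and ASCL2 -0.35. Thinned before the choice, SOX9 was -0.24 and CXCL1 1.41, and thinned after it SOX9 was -0.14, MAML1 0.033, RBPJ 0.040 and CXCL1 0.89. With the flow cell as a term ASCL2 was -0.034 and CXCL1 0.0097, and with at least 3000 genes CXCL1 was 0.25. With single libraries left out the ranges were -0.63 to 0.26 for ZEB1, -0.16 to 0.29 for SOX9, -0.090 to 0.40 for TFF3, -0.50 to 0.22 for MAML1, -1.41 to 0.10 for HEYL, -0.18 to 0.069 for RBPJ, -0.22 to 0.27 for ASCL2 and -1.44 to 0.67 for CXCL1. The causes were not tested.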
